A study of Mus musculus with 72 samples.

Results

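The Cyp2b cytochromes P450 measured here were Cyp2b10, Cyp2b9 and Cyp2b13, chosen by gene symbol from the probe names. They were represented by 4 of the 30146 probes in the count table, 2 for Cyp2b10, 1 for Cyp2b9 and 1 for Cyp2b13. The Cyp2b10 probe with more counts is called its main probe and the other its second probe. All 4 were among the 17050 probes that passed the filter on low counts. The livers came from female B6C3F1 mice, a hybrid stock, that were 9 to 11 weeks old and housed singly. They drank water with tert-butyl alcohol (TBA) at 0, 10, 20 or 40 mg/mL for 14 or 28 d, which makes 8 groups of 9 animals and 1 library per animal. The undosed animals of each duration were the controls. Counts came from TempO-Seq, in which pairs of detector oligos are ligated on their target transcript and sequenced, run on scraped sections of fixed, paraffin-embedded liver. Levels are CPM, counts brought to a common library size, after TMM scaling, a correction for library composition. Replicate numbers below only name animals. They follow the order in which samples are listed.

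Cytochromes P450 of the Cyp2b subfamily are haem enzymes of the smooth endoplasmic reticulum that oxidise drugs, steroids and other lipophilic compounds. In mouse liver Cyp2b10 is the classic target of the constitutive androstane receptor (CAR), which binds a distal enhancer of the gene, and phenobarbital is its best known inducer. Cyp2b9 and Cyp2b13 are known in mice as female-predominant genes whose sex difference depends on the pattern of growth hormone release.

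In the reference annotation (GENCODE vM21, GRCm38) the 3 genes lay on the plus strand of chromosome 7. Cyp2b10 spanned chr7:25897620-25926624, Cyp2b13 chr7:26061497-26096197 and Cyp2b9 chr7:26173411-26210661, each with 9 exons in the transcript aligned here and all within 313 kb. The 2 pseudogenes Cyp2b27-ps and Cyp2b26-ps lay between them. No source used here names the build behind the counts, so these positions describe the genes, not the probes. The promoter windows below run from 250 bases before the RefSeq start site to 50 bases from it and are shown because the members differed in response to TBA. They are from RefSeq, GRCm38.p6, plus strand, at chr7:25897408-25897707 (Cyp2b10), chr7:26173159-26173458 (Cyp2b9) and chr7:26061245-26061544 (Cyp2b13). Runs of capitals mark CATAAA in Cyp2b10 and AGGTCA in Cyp2b9 and Cyp2b13, and single capitals mark the bases that differ between Cyp2b9 and Cyp2b13.
Cyp2b10: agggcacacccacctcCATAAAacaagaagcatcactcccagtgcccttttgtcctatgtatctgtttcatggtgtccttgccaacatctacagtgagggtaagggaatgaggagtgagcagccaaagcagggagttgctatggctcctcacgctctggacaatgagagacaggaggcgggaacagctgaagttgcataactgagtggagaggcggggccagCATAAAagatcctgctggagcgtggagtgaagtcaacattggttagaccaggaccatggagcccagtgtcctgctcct
Cyp2b9: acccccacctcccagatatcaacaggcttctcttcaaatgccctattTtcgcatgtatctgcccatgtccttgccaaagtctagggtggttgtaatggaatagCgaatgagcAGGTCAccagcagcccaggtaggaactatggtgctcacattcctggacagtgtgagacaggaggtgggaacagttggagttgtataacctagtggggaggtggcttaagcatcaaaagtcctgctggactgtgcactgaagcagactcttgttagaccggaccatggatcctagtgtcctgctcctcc
Cyp2b13: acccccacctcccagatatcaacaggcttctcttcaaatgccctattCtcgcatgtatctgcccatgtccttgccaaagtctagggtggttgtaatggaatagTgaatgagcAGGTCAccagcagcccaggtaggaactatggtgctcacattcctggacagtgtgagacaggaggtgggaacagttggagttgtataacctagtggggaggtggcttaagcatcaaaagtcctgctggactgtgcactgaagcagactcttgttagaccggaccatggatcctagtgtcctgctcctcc

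The windows of Cyp2b9 and Cyp2b13 were identical at 298 of 300 positions (99.3%). The differences, counted from 1 at the 5′ end of the window and written from Cyp2b13 to Cyp2b9, were C48T and T104C. The window of Cyp2b10 had 71.7% identity to each of the others over the aligned columns, gaps included. AGGTCA, a half-site of nuclear receptors, was searched on both strands and occurred once in Cyp2b9 and once in Cyp2b13, at position 113, and not in Cyp2b10. It occurred in 16.3% of all 32851 RefSeq windows of this length. The related half-site AGTTCA (14% of windows) and TATAAA (13.6%) occurred in none of the 3. CATAAA, a 1-base variant of TATAAA picked after the sequences were read, occurred 2 times in Cyp2b10, at positions 17 and 223, and in 11.9% of all windows. These are matches of letters in a short window and say nothing of which factor binds there.

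The transcripts were also alike, with 89.2% identity between Cyp2b9 and Cyp2b13, 84.4% between Cyp2b10 and Cyp2b9 and 83.9% between Cyp2b10 and Cyp2b13. Of the 50-base stretches of the Cyp2b9 transcript, 10.8% occurred unchanged in Cyp2b13. Of those of Cyp2b10, 7.82% occurred in Cyp2b13 and 0.536% in Cyp2b9. Probe sequences were not used here, so whether a probe also binds a related transcript was not tested. The 2 probes of Cyp2b10 kept a count ratio of 3.2 to 8.01 (median 4.37) over 71 libraries with a Spearman rho of 0.988. Of the other subfamily members, Cyp2b23 had 1 count and Cyp2b19 had 5 counts over all 71 libraries, and neither was tested.

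The 71 libraries analysed held 7.77 to 12.7 M counts (median 10.1 M). In the 40 mg/mL group of 14 d, replicate 5 held only 10796 counts with 0 on every Cyp2b probe and was left out, leaving n = 8. TMM scaling factors ran from 0.792 to 1.58, and 12 libraries exceeded 1.2, the highest being replicates 7 and 1 at 40 mg/mL for 14 d. The 8 hepatocyte markers summed to 8631 to 38272 CPM at 40 mg/mL for 14 d, against 36852 to 52623 CPM in controls. In that comparison 4 of the 8 fell, as did 627 of all 17050 probes, and 6.52% of probes were called in either direction. At 40 mg/mL for 28 d the sum was 14090 to 51525 CPM, against 11023 to 59103 CPM in controls. Replicate 3 of these controls had a TMM factor of 1.37, against 0.792 to 0.957 in the others. It also had the lowest Cyp2b10 of them, 23.7 CPM on the main probe. The median sum at 28 d was 42916 CPM in controls and 33909, 24339 and 31405 CPM at 10, 20 and 40 mg/mL, and none of the 8 markers was called there. Its part in the results at 20 mg/mL for 28 d was not tested. None of these 8 markers was at 0 in any group. In bulk tissue fewer cells of a type and less RNA per cell cannot be told apart. Replicates are separate animals, so p-values measure the spread between animals.

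Cyp2b10 was higher than in controls at every TBA concentration and both durations by fitted mean. It passed the test only at 40 mg/mL for 14 d and at 20 mg/mL for 28 d. At 10 and 20 mg/mL every dosed liver exceeded every control on the more abundant Cyp2b10 probe. Livers at 40 mg/mL spread from below the lowest control to the highest level in the study. Cyp2b9 and Cyp2b13 passed the test in no comparison with controls.

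At 14 d, the main probe of Cyp2b10 had a lowest, median and highest level of 31.6, 54.6 and 101 CPM in controls. At 10 mg/mL these were 232, 296 and 2751 CPM, at 20 mg/mL 128, 536 and 2332 CPM, and at 40 mg/mL 20.3, 136 and 6424 CPM. All 9 livers at 10 mg/mL and all 9 at 20 mg/mL lay above the highest control. Of the 8 livers at 40 mg/mL, 4 lay above, 3 within the control range and 1 below it. Within the 10 mg/mL group 6 of the 9 livers lay between 232 and 306 CPM, and replicates 7, 3 and 2 had 977, 2385 and 2751 CPM.

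At 28 d, the main probe had a lowest, median and highest level of 23.7, 51.5 and 95.2 CPM in controls. At 10 mg/mL these were 153, 335 and 610 CPM, at 20 mg/mL 103, 700 and 2095 CPM, and at 40 mg/mL 24.7, 338 and 1201 CPM. Again both lower doses had all 9 livers above the highest control, while 5 of 9 did at 40 mg/mL. The other 4 at 40 mg/mL lay within the control range.

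The second probe gave the same picture at lower counts. Its medians at 14 d were 13.8 CPM in controls and 60.7, 124 and 30 CPM at 10, 20 and 40 mg/mL, and at 28 d 11.5 CPM in controls and 67.4, 144 and 79.3 CPM. All 9 dosed livers exceeded all controls at 10 mg/mL at both durations and at 20 mg/mL for 14 d, and 8 of 9 did at 20 mg/mL for 28 d.

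**Figure D1:**
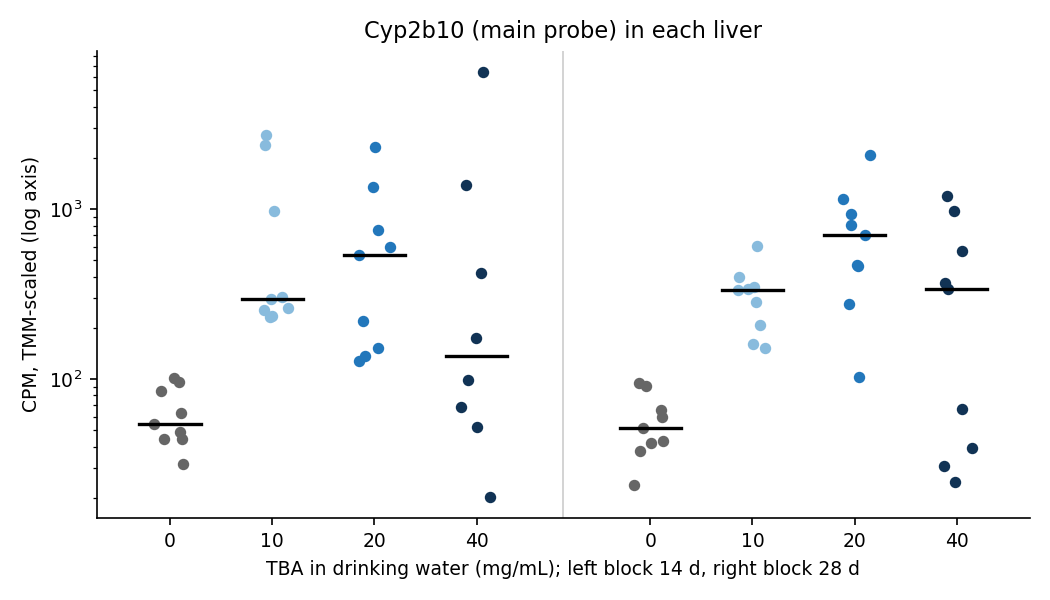
Level of Cyp2b10 (main probe, TMM-scaled CPM, log axis) in each of 71 livers by TBA concentration (x axis, mg/mL), with 14 d in the left block and 28 d in the right. Points are animals and bars are medians; at 10 and 20 mg/mL no point lies as low as the highest control (101 CPM at 14 d, 95.2 CPM at 28 d), and at 40 mg/mL points run from 20.3 to 6424 CPM at 14 d.

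Such complete upward separation from the 9 controls was uncommon among the 17050 probes. At 14 d it held for 4 probes at 10 mg/mL (0.0235%), 4 at 20 mg/mL (0.0235%) and 17 at 40 mg/mL (0.0997%), and at 28 d for 5 (0.0293%), 2 (0.0117%) and 1 (0.00587%). At 10 and at 20 mg/mL for 14 d the 4 probes were the 2 of Cyp2b10 and 2 of Cyp2c29, another CAR-inducible P450. For 10 mg/mL at 28 d they were the same 4 and Cyp2a5, a coumarin hydroxylase. For 20 mg/mL at 28 d they were the main Cyp2b10 probe and H3f3b, a histone gene. Neither Cyp2b10 probe was among those at 40 mg/mL. Cyp2c29, Cyp2a5 and H3f3b were named after their values were seen.

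After 14 d the main probe averaged 855 ± 1003 CPM at 10 mg/mL, 690 ± 734 CPM at 20 mg/mL and 1080 ± 2206 CPM at 40 mg/mL, against 63.2 ± 25 CPM in controls (SD, n = 9, and n = 8 at 40 mg/mL). At 28 d it averaged 315 ± 141 CPM at 10 mg/mL, 778 ± 593 CPM at 20 mg/mL and 401 ± 437 CPM at 40 mg/mL, against 56.5 ± 24 CPM in controls (SD, n = 9 each). The highest liver exceeded the lowest by 317-fold at 40 mg/mL for 14 d and 48.5-fold at 40 mg/mL for 28 d, against 3.2-fold and 4.01-fold in the controls of those durations. In the 10 mg/mL group of 28 d the range was 4-fold, as wide as in controls. The median was lower at 40 than at 20 mg/mL at both durations, and the mean was lower at 28 d but not at 14 d.

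The fit across all probes (edgeR's quasi-likelihood test, Benjamini-Hochberg adjusted p, called under 0.05) gave the following for the main probe. At 14 d the log2 fold change over control was 3.76 at 10 mg/mL (SE 0.79, adjusted p = 0.0878), 3.45 at 20 mg/mL (SE 0.78, adjusted p = 0.0508) and 4.09 at 40 mg/mL (SE 0.81, adjusted p = 0.000796). At 28 d it was 2.48 at 10 mg/mL (SE 0.75, adjusted p = 0.999), 3.78 at 20 mg/mL (SE 0.79, adjusted p = 0.0497) and 2.83 at 40 mg/mL (SE 0.76, adjusted p = 0.221). Cyp2b10 therefore passed at 40 mg/mL for 14 d, 17.1-fold (95% interval 5.56 to 52.4), and at 20 mg/mL for 28 d, 13.8-fold (4.6 to 41.2). The second probe passed in the same 2 comparisons, with log2 fold changes of 3.94 (SE 0.83, adjusted p = 0.00171) and 3.66 (SE 0.81, adjusted p = 0.0497). Cyp2b9 and Cyp2b13 passed in none.

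Those calls stand against few calls among all 17050 probes at most doses. After 14 d the test called 0 probes at 10 mg/mL (0%), 6 at 20 mg/mL (0.0352%) and 1111 at 40 mg/mL (6.52%). At 28 d it called 0 (0%), 27 (0.158%) and 1 (0.00587%). With no call at 10 mg/mL, an unadjusted p under 0.05 was found for 736 probes at 14 d and 707 at 28 d. Both lie below the share of 0.05 that would come about without any effect. DESeq2 called 12 and 0 probes and limma 7 and 18. By fitted log2 fold change among 9971 probes with a mean of at least 5 CPM, the 2 Cyp2b10 probes held ranks 1 and 2 at 10 mg/mL for 14 d, at 10 mg/mL for 28 d and at 20 mg/mL for 28 d. At 14 d they ranked 5 and 6 under 20 mg/mL and 2 and 3 under 40 mg/mL, and with 40 mg/mL for 28 d they ranked 6 and 7.

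The calls at 10 and 20 mg/mL differed with the livers that entered the fit. The fit above uses 1 spread per probe for all 8 groups. By SD of log2 CPM the main probe spread widest at 40 mg/mL, 2.72 at 14 d and 2.22 at 28 d. By SD as a percentage of the mean, 10 mg/mL at 14 d (117%) stood above 40 mg/mL at 28 d (109%). When only the 10 mg/mL and control livers were fitted, the main probe had a log2 fold change of 3.76 (adjusted p = 0.0359) at 14 d and 2.5 (adjusted p = 0.00107) at 28 d, and both passed. At 20 mg/mL the same fits gave 3.46 (adjusted p = 0.0381) at 14 d and 3.81 (adjusted p = 0.00193) at 28 d. At 14 d the unadjusted edgeR p went from 1.18e-05 in the shared fit to 1.54e-05 at 10 mg/mL. At 20 mg/mL it went from 3.87e-05 to 2.12e-05. The probes tested also differed, 17050 in the shared fit and 14261 and 14397 with the 2 groups alone. What moved the calls was not tested. limma with quality weights, which weights livers by their variability, also passed all 4, with 2.74 and 2.95 at 14 d and 2.41 and 3.35 at 28 d at 10 and 20 mg/mL (adjusted p from 0.00214 to 0.021).

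An exact permutation test of mean log2 CPM, two-sided and free of a count model, gave p = 4.11e-05 for the main probe at 10 and at 20 mg/mL at both durations. That is the smallest p the design allows, and 24 such tests were made over 4 probes and 6 comparisons. The differences in mean log2 CPM were 3.09 and 2.84 at 14 d and 2.47 and 3.48 at 28 d. The difference at 40 mg/mL was 1.87 at 14 d (exact permutation p = 0.0547, n = 8 against 9) and 1.76 at 28 d (exact permutation p = 0.0357, n = 9 each). The fit compares means of counts and the permutation test means of logs, and at 40 mg/mL for 14 d they gave 4.09 and 1.87 log2 units.

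Replicate 9 held the 6424 CPM at 40 mg/mL for 14 d, and the next liver had 1380 CPM. Without replicate 9 the log2 fold change of the main probe was 2.32 (adjusted p = 0.0343) and that of the second probe was 2.16 (adjusted p = 0.0644). With limma and all 8 livers the main probe had 1.84 (adjusted p = 0.122). The call at 20 mg/mL for 28 d sat at the threshold: leaving out 1 library ended it for the main probe in 14 of 18 cases, with log2 fold changes of 3.44 to 3.91 and adjusted p of 0.0566 to 0.105 in those 14. The 14 libraries were all but replicates 3 of the controls and 4, 7 and 9 of the dosed group.

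**Figure D2:**
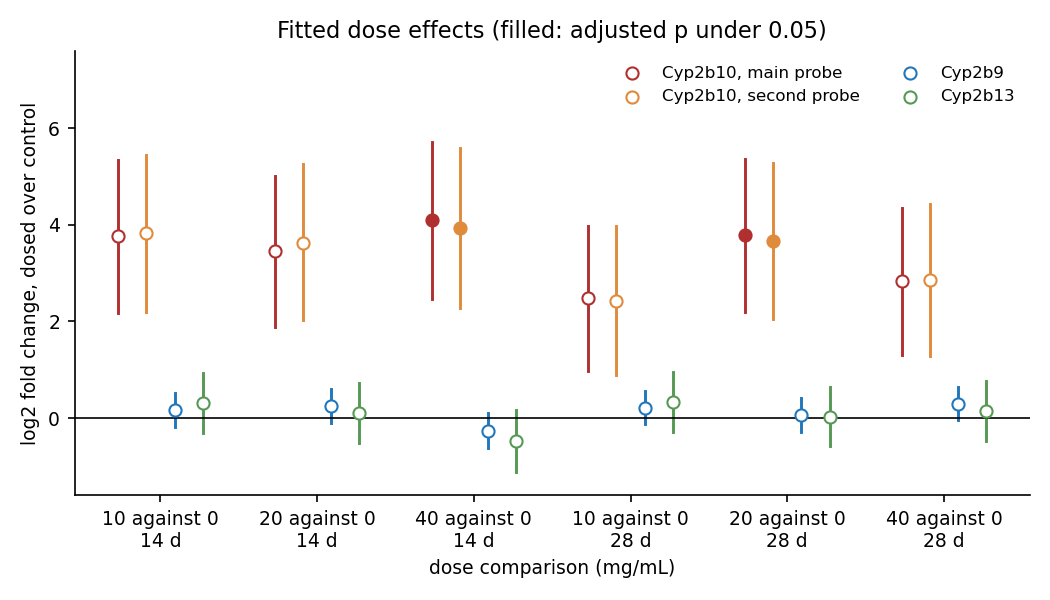
Fitted log2 fold change of each dosed group over the control of its duration (y axis) for the 4 Cyp2b probes in 6 comparisons (x axis, mg/mL and days), with 95% intervals as lines. Filled points passed at an adjusted p under 0.05; both Cyp2b10 probes lie between 2.43 and 4.09, and Cyp2b9 and Cyp2b13 between -0.48 and 0.34.

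Neighbouring concentrations were not told apart for Cyp2b10, in comparisons added after the values were seen. For 14 d the log2 fold change of the main probe was -0.31 for 20 against 10 mg/mL (95% interval -1.72 to 1.1) and 0.65 for 40 against 20 mg/mL (-0.81 to 2.1). At 28 d it was 1.3 (-0.13 to 2.74) and -0.96 (-2.38 to 0.47). No Cyp2b probe passed in these 4 comparisons, in which 2 (0.0117%), 147 (0.862%), 0 (0%) and 1 (0.00587%) of all probes did. For 20 against 10 mg/mL at 28 d, 1459 probes had an unadjusted p under 0.05, and DESeq2 called 15 and limma 0. The value for 40 against 20 mg/mL at 14 d was -1.13 without replicate 9 and -1.11 in limma, so its sign rested on that liver.

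A linear dose trend of the main probe passed at 14 d, 0.83 log2 units per 10 mg/mL (SE 0.18, adjusted p = 0.00167), where 7.99% of probes passed. Without replicate 9 it was 0.37 (adjusted p = 0.165). At 28 d it was 0.62 (SE 0.17, adjusted p = 0.148), where 0.129% of probes passed. The medians did not rise at each step, as 40 mg/mL stood below 20 mg/mL at both durations.

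The effect of TBA on Cyp2b10 was not shown to change between durations. The difference of the log2 fold changes of the main probe, 28 d minus 14 d, was -1.28 at 10 mg/mL (95% interval -3.29 to 0.74), 0.34 at 20 mg/mL (-1.67 to 2.34) and -1.27 at 40 mg/mL (-3.31 to 0.77). None of the Cyp2b probes passed, and edgeR called 0 of all probes at each concentration (0%), with 732, 537 and 1081 at an unadjusted p under 0.05. Of these only 1081 exceeds the share of 0.05 of all probes that would come about without any effect. DESeq2 called 0, 0 and 31 probes and limma 2, 0 and 0. Controls at 28 d against controls at 14 d gave log2 fold changes of -0.16 for Cyp2b10, 0.04 for Cyp2b9 and 0.08 for Cyp2b13. No probe was called by edgeR in that comparison (0%), and 516, again below that share, had an unadjusted p under 0.05. There DESeq2 called 0 and limma 3. These intervals are wide, and a difference of several fold between durations would lie within them.

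Within each 40 mg/mL group the liver highest in Cyp2b10 was also the highest in Cyp2c29, with exceptions further down. At 28 d replicates 8, 5 and 9 had 1201, 977 and 565 CPM of Cyp2b10 and 6485, 5857 and 3977 CPM of Cyp2c29. The Cyp2c29 of replicate 9 was the median of its group. Replicates 2 and 4 had less Cyp2b10 than replicate 9, at 368 and 338 CPM, but more Cyp2c29, at 4685 and 4184 CPM. Replicates 3, 6 and 7 had 24.7, 30.6 and 39.3 CPM of Cyp2b10 and 1567, 761 and 718 CPM of Cyp2c29. Replicates 6 and 7 also had the highest TMM factors of that group, 1.35 and 1.4, while replicate 3 had 0.906. At 14 d replicates 9 and 8 were highest in both genes, and replicates 1 and 7, with TMM factors of 1.55 and 1.58, had 20.3 and 68.1 CPM of Cyp2b10. Replicate 3 of that group, at 51.8 CPM of Cyp2b10, lay within the control range, while its Cyp2c29 lay above all controls. Replicates 2 and 8 had factors of 1.39 and 1.3 with 419 and 1380 CPM of Cyp2b10. The part of library composition in these levels was not tested. An alternative chosen after seeing the data left out the 12 libraries whose factor exceeded 1.2. At 14 d Cyp2b10 then passed at 10 mg/mL (3.28, adjusted p = 0.0403), 20 mg/mL (3.27, adjusted p = 0.0254) and 40 mg/mL (4.72, adjusted p = 0.000219). At 28 d it passed at 20 mg/mL (3.97, adjusted p = 0.0159). The value of 4.72 came from the livers left at 40 mg/mL for 14 d, replicates 3, 4, 6 and 9. These had 51.8, 173, 99.1 and 6424 CPM of Cyp2b10. That fit was not repeated without replicate 9.

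The genes whose pattern was most like that of Cyp2b10 included other P450s and a glutathione transferase. Over all 71 libraries and 9969 candidate probes of other symbols with a mean of at least 5 CPM, the highest Spearman rho were 0.873 for Cyp2c29, 0.815 for Gstt3, 0.798 for Cyp2c55, 0.725 for Gm20441 and 0.686 for Cth. Gstt3 is a theta-class glutathione transferase, Cyp2c55 a CAR-inducible P450 and Cth the cystathionine gamma-lyase of cysteine synthesis. After each group's mean was subtracted, which removes differences between groups, the order was Gstt3 (0.798), Cyp2c29 (0.756), Gm20441 (0.741), Cth (0.702) and Slco1a4 (0.699), an organic anion uptake carrier. The livers share their groups, depth and library composition, so these values are descriptions.

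**Figure D3:**
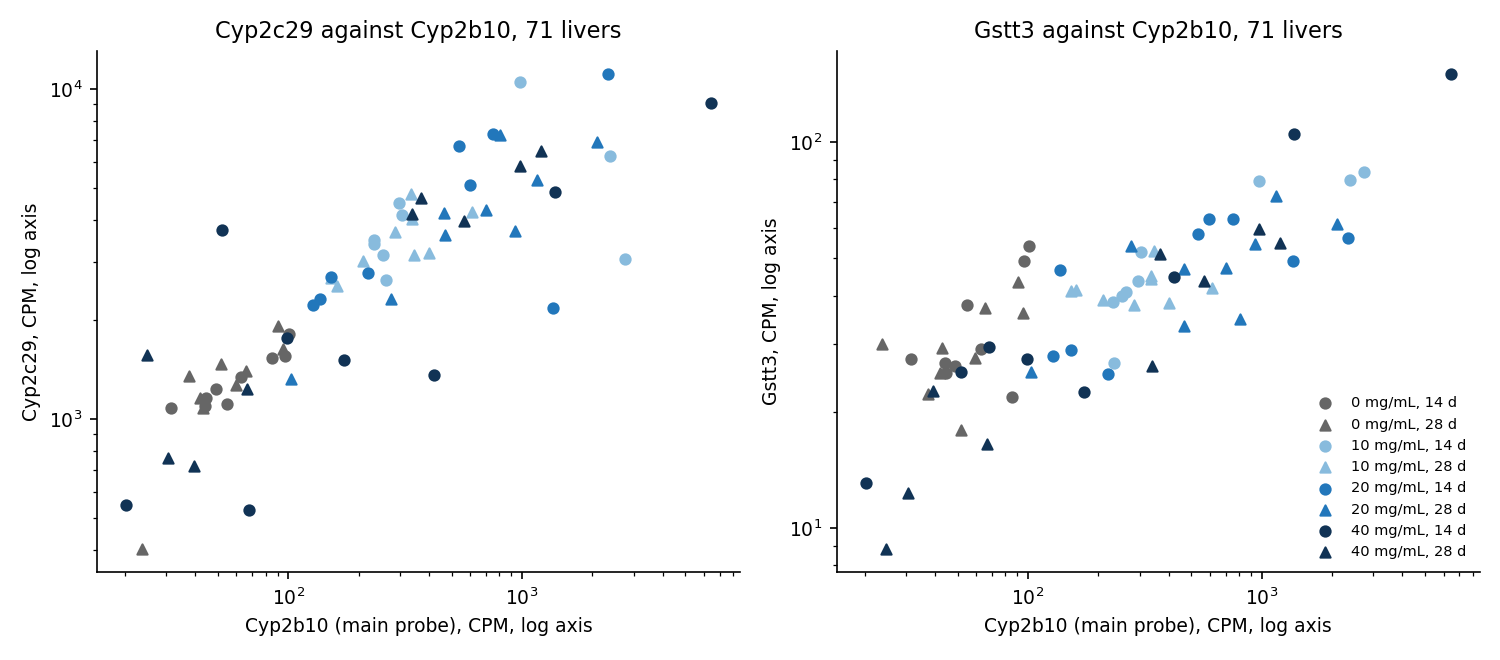
Levels of Cyp2c29 (left) and Gstt3 (right) against the main probe of Cyp2b10 in 71 livers, all as TMM-scaled CPM on log axes, with colour for the concentration and shape for the duration. Spearman rho over all livers is 0.873 for Cyp2c29 and 0.815 for Gstt3, and the 40 mg/mL livers span the whole range of Cyp2b10.

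Cyp2c29 at 10 mg/mL had a lowest, median and highest level of 2637, 3479 and 10505 CPM at 14 d, against 1081, 1229 and 1806 CPM in controls. At 28 d these were 2530, 3187 and 4790 CPM at 10 mg/mL, against 404, 1350 and 1910 CPM in controls. As for Cyp2b10, the groups did not overlap. Cyp2c29 passed at 20 mg/mL for 28 d (log2 fold change 1.74, SE 0.4, adjusted p = 0.0497) and Cyp2c55 at 20 mg/mL for 14 d (3.12, SE 0.63, adjusted p = 0.0289). Gstt3 passed in none of the 6 comparisons, with log2 fold changes of 0.13 to 0.7.

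Cyp2b9 levels overlapped the controls in every group. At 14 d the lowest, median and highest were 94.7, 143 and 194 CPM in controls, 89.1, 161 and 233 CPM at 10 mg/mL, 120, 171 and 234 CPM at 20 mg/mL and 51.8, 107 and 196 CPM at 40 mg/mL. At 28 d they were 99.8, 154 and 207 CPM in controls, 128, 176 and 203 CPM at 10 mg/mL, 90.5, 161 and 221 CPM at 20 mg/mL and 120, 178 and 242 CPM at 40 mg/mL. The lowest Cyp2b9 at 40 mg/mL for 14 d was that of replicate 9, the one with the highest Cyp2b10. The medians differed from control by less than the range of the controls at each dose.

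The log2 fold changes of Cyp2b9 over control were 0.17, 0.25 and -0.26 at 14 d and 0.21, 0.06 and 0.29 at 28 d at 10, 20 and 40 mg/mL. The adjusted p was 0.472 or higher in all 6. The intervals bound the change: at 40 mg/mL the fold was 0.652 to 1.07 at 14 d and 0.963 to 1.56 at 28 d, and over the 6 comparisons the lowest bound was 0.652 and the highest 1.56. The effect at 40 mg/mL was 0.55 higher at 28 d than at 14 d (SE 0.25, edgeR adjusted p = 0.714), and 40 against 20 mg/mL at 14 d gave -0.51 (SE 0.18, edgeR adjusted p = 0.169). Neither passed, though without replicate 6 at 40 mg/mL for 14 d the second was -0.65 (edgeR adjusted p = 0.0471). With the log2 TMM factor as a covariate the 40 mg/mL value at 14 d was 0.23, so its sign turned.

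Cyp2b13 levels also overlapped the controls in every group. At 14 d the lowest, median and highest were 15.2, 23.1 and 38.4 CPM in controls, 12.4, 32.6 and 61.8 CPM at 10 mg/mL, 4.49, 26.7 and 39.5 CPM at 20 mg/mL and 6.01, 16.3 and 39.9 CPM at 40 mg/mL. At 28 d they were 14.4, 25 and 42.2 CPM in controls, 12.7, 35.6 and 46.9 CPM at 10 mg/mL, 10.5, 27.6 and 39.5 CPM at 20 mg/mL and 12.2, 28.4 and 66.7 CPM at 40 mg/mL. Of the livers at 40 mg/mL for 14 d, 3 of 8 lay below all controls and 1 above. Counts of Cyp2b13 ran from 63 to 604 per library over the 8 groups, and the intervals are wider than for Cyp2b9.

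The log2 fold changes of Cyp2b13 were 0.31, 0.11 and -0.48 at 14 d and 0.34, 0.03 and 0.15 at 28 d at 10, 20 and 40 mg/mL, with adjusted p of 0.451 or higher. For 40 mg/mL at 14 d the 95% interval of the fold was 0.46 to 1.12, and the exact permutation test on log2 CPM gave a difference of -0.61 (p = 0.0809, n = 8 against 9). Over the 6 comparisons the fold was bounded by 0.46 and 1.94.

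**Figure D4:**
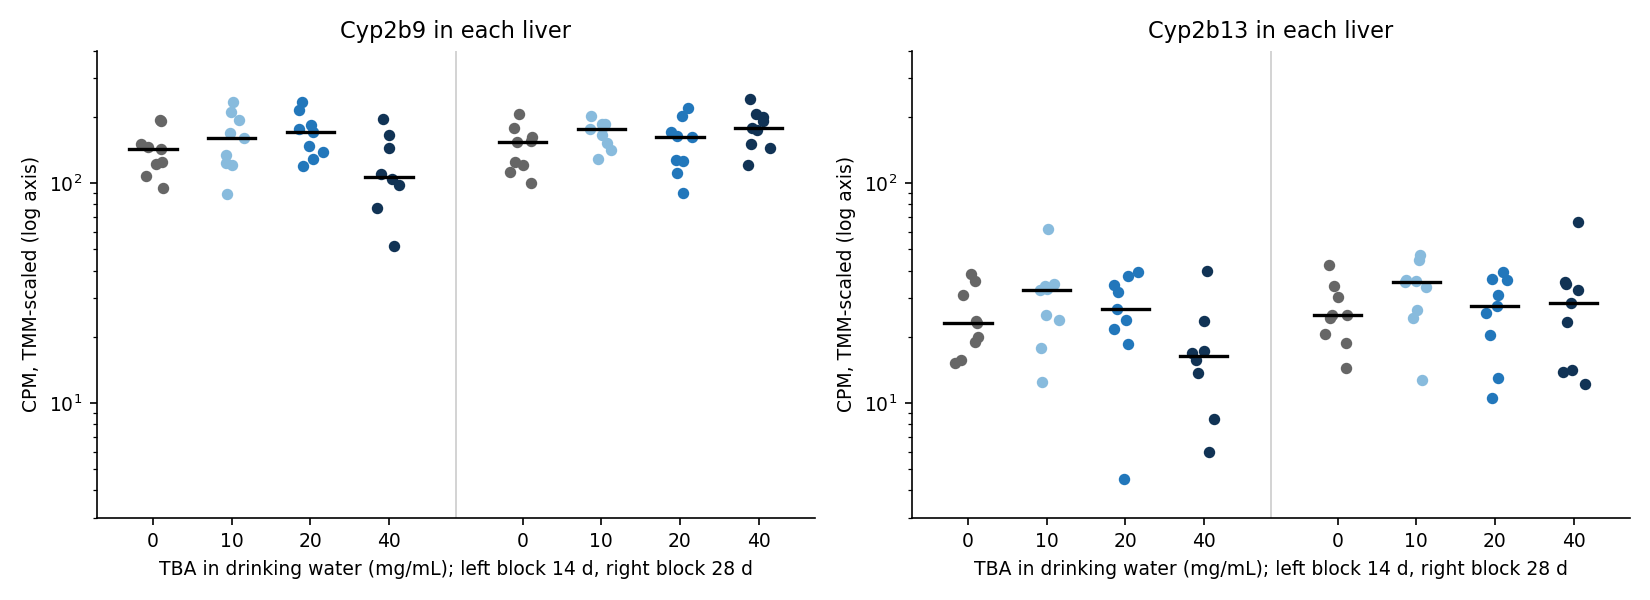
Levels of Cyp2b9 (left) and Cyp2b13 (right) in each of 71 livers as TMM-scaled CPM on a log axis, by TBA concentration (x axis, mg/mL), with 14 d in the left block and 28 d in the right. Points are animals and bars are medians; medians run from 107 to 178 CPM for Cyp2b9 and from 16.3 to 35.6 CPM for Cyp2b13, and every dosed group overlaps its controls.

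No relation between members across the livers of a group passed its test. Within the 8 groups 24 relations of log2 CPM were computed between pairs of members, with none passing (lowest adjusted p = 0.282 for Pearson's r and 0.295 for Spearman's rho, exact permutation over pairings). The highest were r = 0.75 between Cyp2b9 and Cyp2b13 at 10 mg/mL for 14 d (rho = 0.67, exact permutation p = 0.0198 and 0.0589) and r = 0.75 between Cyp2b10 and Cyp2b13 at 40 mg/mL for 28 d (rho = 0.72, exact permutation p = 0.0235 and 0.0369). Without the 2 livers farthest from the median of the first gene these were 0.21 and 0.59, so the first rested on those livers. For Cyp2b9 and Cyp2b13 r was positive in all 8 groups, from 0.09 to 0.75. For Cyp2b10 and Cyp2b9 it ran from -0.5 to 0.61.

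Cyp2b9 and Cyp2b13 had other genes like them. After group means were subtracted, Cyp2b9 was most like Bche (0.828), Serpina6 (0.822), Apol7a (0.816), Aadac (0.806) and Iyd (0.8). Bche encodes butyrylcholinesterase, Serpina6 the plasma carrier of corticosteroids, Aadac an esterase of the endoplasmic reticulum and Iyd a deiodinase of iodotyrosines. Over all libraries its list was Serpina6 (0.795), Slc16a7 (0.779), Vnn3 (0.778), Apol7a (0.769) and Dhrs7 (0.768). For Cyp2b13 the values were lower. Maob (0.575), Inmt (0.564), Nipsnap1 (0.559), Apol7a (0.557) and Sardh (0.546) led after group means were subtracted, and Sardh (0.616), Aldh4a1 (0.593), Maob (0.58), Rgn (0.577) and Apol7a (0.573) led over all libraries. Maob is a monoamine oxidase and Sardh the mitochondrial sarcosine dehydrogenase.

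Of the CAR and pregnane X receptor targets of phase 1 metabolism other than Cyp2b10, 16 of 18 listed genes were tested. None was called at 10 mg/mL at either duration, 1 rose at 20 mg/mL for 14 d (Cyp2c55), 1 at 20 mg/mL for 28 d (Cyp2c29), and 0 rose at 40 mg/mL. At 14 d 3 fell at 40 mg/mL, where 627 of all 17050 probes did: Cyp1a2 by a log2 fold change of -1.44 (adjusted p = 0.00209), Cyp2c54 by -1.16 (adjusted p = 0.0414), and Cyp3a41a by -1.04 (adjusted p = 0.0457). All 8 dosed livers lay below all controls for Cyp1a2, 6 of 8 for Cyp2c54 and 1 of 8 for Cyp3a41a. The share of all probes with every dosed liver below every control was not counted. How unusual such a position is in this group is therefore not known. Cyp1a2 is better known as a target of the aryl hydrocarbon receptor and Cyp3a41a as a female-predominant P450. Cyp2c29 had 1.15 (adjusted p = 0.0722) there. The list's median log2 fold change was 0.38, 0.27 and -0.15 at 14 d and 0.33, 0.25 and 0.01 at 28 d for 10, 20 and 40 mg/mL, beside 0.02, 0.02 and 0.06 and 0, 0.03 and 0.03 over all probes. The smallest p at 40 mg/mL for 28 d were those of Cyp2c29 (1.34, adjusted p = 0.33), Cyp2c55 (1.41, adjusted p = 0.698), Aldh1a1 (-0.45, adjusted p = 0.778) and Cyp1a2 (-0.56, adjusted p = 0.8).

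All 22 conjugation enzymes and transporters of the same receptors were tested. Of these, 3 rose and 2 fell at 40 mg/mL for 14 d, 1 rose at 20 mg/mL for 28 d, and elsewhere none was called. Of all 17050 probes, 484 rose and 627 fell in the first comparison (6.52%), and 0.158% were called in the second. Gstm1, a mu-class glutathione transferase, rose in both, by 0.77 (adjusted p = 0.0126) in the first and 0.87 (adjusted p = 0.0497) in the second. The oestrogen sulfotransferase Sult1e1 (4.91, adjusted p = 0.0142) and the efflux pump Abcc4 (2.57, adjusted p = 0.0151) rose, and Ugt1a1 (-0.93, adjusted p = 0.0151), which conjugates bilirubin, and Ugt2b36 (-0.53, adjusted p = 0.0197) fell. Sult1e1 averaged 19 ± 50.2 CPM at 40 mg/mL, against 0.598 ± 0.892 CPM in controls (SD, n = 8 against 9), with 2 of 8 livers above all controls. The list's median was 0.3 at 40 mg/mL for 14 d and 0.05 at 28 d, where Abcb1a (0.93, adjusted p = 0.37), Sult2a1 (1.57, adjusted p = 0.688), Abcc4 (1.44, adjusted p = 0.759) and Gstm1 (0.37, adjusted p = 0.804) had the smallest p.

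Of the 8 tested CAR targets of growth and stress, 3 rose at 40 mg/mL for 14 d and none was called elsewhere. In that comparison 484 of all 17050 probes rose. The 3 were Gadd45b (1.88, adjusted p = 0.0186), a stress-induced regulator of growth arrest, the proliferation marker Mki67 (3.38, adjusted p = 0.0204) and the lipogenic gene Thrsp (1.84, adjusted p = 0.0271). Tsku had 2.19 (adjusted p = 0.0551). Gadd45b was above all controls in 2 of 8 livers and below all controls in 1. By 28 d at that concentration the smallest p were those of Gadd45a (1.05, adjusted p = 0.264), Myc (0.86, adjusted p = 0.87), Mdm2 (0.31, adjusted p = 0.923) and Thrsp (0.47, adjusted p = 0.969).

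CAR itself (Nr1i3), its partners and regulators made a list of 24 tested genes, of which 1 rose and 1 fell at 40 mg/mL for 14 d and none was called elsewhere. With 6.52% of all probes called there, that count is near the background and is no result about the list. Egfr, the growth factor receptor whose signalling holds CAR inactive, averaged 167 ± 84.8 CPM at 40 mg/mL, against 575 ± 72.5 CPM in controls (SD, n = 8 against 9). Its log2 fold change was -1.78 (SE 0.39, adjusted p = 0.00234), and all 8 livers lay below all controls. How many of all probes lay wholly below controls was not counted, and 627 of 17050 fell there. Of the 8 hepatocyte markers 4 fell too, and their part in the fall of Egfr was not tested. Rack1, a scaffold protein that takes part in the dephosphorylation of CAR, rose (0.66, SE 0.21, adjusted p = 0.0429). Rxra, the dimer partner of CAR, had -0.39 (adjusted p = 0.0799), and Cebpa -0.4 (adjusted p = 0.0803). At 28 d Ppargc1a (0.69, adjusted p = 0.446), Mapk3 (0.58, adjusted p = 0.712), Rack1 (0.39, adjusted p = 0.798) and Hsp90ab1 (0.31, adjusted p = 0.798) had the smallest p at that concentration.

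None of the 14 genes for electron transfer to P450s and haem synthesis was called in any of the 6 comparisons. The smallest p at 40 mg/mL for 14 d were those of Pgrmc1 (-0.87, adjusted p = 0.0984), the P450 reductase Por (0.83, adjusted p = 0.141), Cyb5r3 (0.37, adjusted p = 0.15) and Cyb5b (0.34, adjusted p = 0.232). With 40 mg/mL for 28 d these were Cpox (-0.36, adjusted p = 0.776), Alas1 (0.9, adjusted p = 0.853), Pgrmc1 (-0.47, adjusted p = 0.893) and Ppox (0.31, adjusted p = 0.94). Alas1 encodes the first and rate-limiting enzyme of haem synthesis.

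Cyp2b9 and Cyp2b13 belong among the genes higher in female liver. Of 26 other such genes tested (29 listed), 2 rose and 4 fell at 40 mg/mL for 14 d, where 6.52% of all probes were called, and none was called elsewhere. Acot3 (1.89, adjusted p = 0.0142) rose, and Cyp2c69 (-1.69, adjusted p = 0.00612), Lifr (-1.06, adjusted p = 0.00903) and Cyp3a41b (-1.06, adjusted p = 0.0219) fell. The list's median log2 fold change was 0.15 there and 0.39 at 28 d, where Abcd2 (0.64, adjusted p = 0.52), Acot3 (1.3, adjusted p = 0.582) and Fmo2 (0.96, adjusted p = 0.624) were among those with the smallest p.

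Of 16 male-biased genes tested, 10 fell at 40 mg/mL for 14 d, with a median of -1.54, and 2 fell at 20 mg/mL for 28 d, Slco1a1 (-2.4) and Mup20 (-1.38, adjusted p = 0.0497 each). Of all 17050 probes, 627 fell in the first of these comparisons and 16 in the second. In the first, 4 of the 8 hepatocyte markers fell too (median -0.68), and their part in these falls was not tested. The major urinary protein genes Mup7 (-2.23, adjusted p = 9.99e-05) and Mup3 (-1.3, adjusted p = 0.000532), the complement gene C8a (-1.52, adjusted p = 0.000109) and the oxysterol hydroxylase Cyp7b1 (-1.68, adjusted p = 0.00074) had the smallest p. At 28 d none of the 16 was called at 40 mg/mL, where Elovl3 had -2.04 (adjusted p = 0.0641), Cyp7b1 -1.13 (adjusted p = 0.238), Mup21 -1.18 (adjusted p = 0.531) and C8a -0.68 (adjusted p = 0.532). Of 15 genes of growth hormone signalling and sex-dependent regulators, 4 fell at 40 mg/mL for 14 d, namely Igf1 (-0.85, adjusted p = 4.74e-05), Igfals (-1.52, adjusted p = 0.000757), Prlr (-0.87, adjusted p = 0.00426) and the receptor Ghr (-0.62, adjusted p = 0.039). None was called in the other comparisons. After 28 d at 40 mg/mL Igf1 had -0.34 (adjusted p = 0.631), Jak2 0.3 (adjusted p = 0.788), Onecut1 0.78 (adjusted p = 0.864) and Bcl6 -0.91 (adjusted p = 0.87).

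CAR targets are known to be strongest around the central vein. Of 13 pericentral genes tested, 6 fell at 40 mg/mL for 14 d, as did 627 of all 17050 probes, and none was called elsewhere. Cyp2e1 (-1.28, adjusted p = 0.000736), the ethanol-oxidising P450, Cyp1a2 (-1.44, adjusted p = 0.00209), Lect2 (-0.94, adjusted p = 0.014) and Gulo (-0.8, adjusted p = 0.022) led. At 28 d Oat (-1.16, adjusted p = 0.0736), Lect2 (-0.72, adjusted p = 0.5), Slc1a2 (-0.69, adjusted p = 0.553) and Cyp1a2 (-0.56, adjusted p = 0.8) had the smallest p. These falls stand beside the lower hepatocyte marker sum of the same group, and the part of that sum in them was not tested. Markers of Kupffer cells (6 tested), lymphocytes (5), cholangiocytes (3), neutrophils (1), red cells (2) and adipocytes (1) had no call in any comparison, while 1 of 5 endothelial and 1 of 6 stellate markers fell at 40 mg/mL for 14 d.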

How the data were processed

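The values are whole-number read counts per probe, deposited by the authors as 1 table of 72 libraries, neither scaled nor logged. Per the submitters' processing notes, bcl2fastq 2.20 and Bowtie were used. No source used here names the build, the Bowtie version or the counting tool. A probe's gene is the part of its row name before the final _ sign.

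Libraries under 100000 counts (1) were left out. Counts were fitted in R 4.3.3 with edgeR 4.0.16: filterByExpr, TMM scaling, and a robust quasi-likelihood fit with 1 mean per group over 71 libraries. P-values were adjusted by Benjamini-Hochberg over all 17050 probes, and the common biological coefficient of variation was 0.402. Log2 CPM used a prior count of 2. DESeq2 1.42.0, limma 3.58.1, other filters and scalings, the 2 groups alone and leaving out each library were alternatives. The edgeR test was checked on simulated counts with the same spread for all probes and groups, and the permutation tests on cases with known answers. The spread of Cyp2b10 differed between groups, so the simulation does not cover its case. DESeq2 and limma were not checked in this way. Each animal gave 1 library. Kept libraries held at least 7.77 M counts, and the lowest count of a member probe was 36, for the second Cyp2b10 probe.

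The members, gene lists and tests were chosen with earlier results of these data known. By rule, the text names every member probe, up to 4 members per list with the smallest p at 40 mg/mL for each duration, and the 5 most like genes per member. One gene that this rule names is not reported here. A gene's list value is that of its probe with the highest mean count. Duplicates were looked for in 280 within-group pairs, and the most alike differed with a chi-square of 6.62 per degree of freedom.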

Additional observations from a re-analysis of the deposited data

Results flagged for a closer look

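In 5 of the 32 combinations of a Cyp2b probe and a group, the highest liver stood apart from the rest of its group by Dixon's 95% criterion. The criterion assumes a normal spread and was applied to CPM without logs. Such levels are skewed, so how often it is met without a true outlier is not known here. Both Cyp2b10 probes flagged the same liver at 40 mg/mL for 14 d, so the 5 are not independent. At 40 mg/mL for 14 d replicate 9 had 6424 CPM of Cyp2b10 on its main probe (next highest 1380 CPM) and 1219 CPM on its second probe (next 242 CPM). At 20 mg/mL for 28 d replicate 6 had 503 CPM on the second Cyp2b10 probe (next 250 CPM). Cyp2b13 reached 61.8 CPM in replicate 7 at 10 mg/mL for 14 d (next 34.9 CPM) and 66.7 CPM in replicate 9 at 40 mg/mL for 28 d (next 35.4 CPM). Without the liver of 6424 CPM the log2 fold change of Cyp2b10 at 40 mg/mL for 14 d was 2.32, and without that of 66.7 CPM the log2 fold change of Cyp2b13 at 40 mg/mL for 28 d was -0.11 in place of 0.15.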

How the results depend on the processing

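The main probe of Cyp2b10 kept a positive log2 fold change over control in every alternative fit of the 6 dose comparisons, while the calls moved. At 10 mg/mL for 14 d it passed with DESeq2 (3.75), limma (2.74), no robust estimation (3.76), a mean of at least 5 CPM (3.76), the log2 scaling factor as covariate (3.9), without replicates 1 and 7 of 40 mg/mL at 14 d (3.75), without libraries with a factor above 1.2 (3.28) and with the 2 groups alone (3.76). At 20 mg/mL for 14 d it passed in the same order with 3.47, 2.95, 3.45, 3.47, 3.59, 3.45, 3.27 and 3.46, and with probes summed per symbol (3.49). At 10 mg/mL for 28 d it passed with limma (2.41) and the 2 groups alone (2.5), and at 40 mg/mL for 28 d with DESeq2 (2.83) and limma (1.94). Calls ended at 40 mg/mL for 14 d with limma (1.84), and at 20 mg/mL for 28 d with DESeq2 size factors (3.82), no filter (3.78) and every library kept (3.78). The removal of libraries with a factor above 1.2 and the neighbouring-dose comparisons were chosen after seeing the data, and the cause of these changes was not tested.

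Signs turned for small values. With the covariate Cyp2b9 had 0.23 at 40 mg/mL for 14 d, 0.05 per 10 mg/mL at 14 d and 0.09 for 20 against 10 mg/mL at 28 d, and Cyp2b13 had 0.04 for the difference between durations at 20 mg/mL. Without libraries above 1.2, that difference at 10 mg/mL was -0.1 for Cyp2b13 and -0.06 for Cyp2b9, and Cyp2b9 had 0.04 for 20 against 10 mg/mL at 28 d. In limma Cyp2b13 had -0.02 per 10 mg/mL at 28 d, -0.08 for the difference at 10 mg/mL and 0 for 40 against 20 mg/mL at 28 d. Also in limma, Cyp2b10 had 0.1 for the difference at 40 mg/mL, 0.22 (second probe 0.26) for 20 against 10 mg/mL at 14 d and -1.11 (second probe -1.23) for 40 against 20 mg/mL at 14 d.

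Without TMM scaling the median probe's log2 difference from control was 0.05, 0.11 and 0.44 at 14 d and 0.04, 0.23 and 0.18 at 28 d, from the low to the high dose, in place of 0.01, -0.03 and 0.01 and -0.01, -0.03 and 0.02 with it. In exact permutation tests on the values without TMM scaling, Cyp2b10 had an unadjusted p under 0.05 at 40 mg/mL for 14 d (2.31). Cyp2b9 had 0.4 and 0.12 at 20 and 40 mg/mL for 14 d and 0.3, 0.34 and 0.48 at 28 d. All of these but 0.12 had an unadjusted p under 0.05. Cyp2b13 had 0.13 and 0.27 at 20 mg/mL for 14 and 28 d. These p-values were not adjusted for the 24 tests made, so they are no calls as in the fit. The correlation of Cyp2b10 with Cyp2b9 at 40 mg/mL for 28 d was -0.07 and that of Cyp2b9 with Cyp2b13 at 20 mg/mL for 14 d was -0.22.

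Leaving out 1 library at a time, the main Cyp2b10 probe ranged over 3.29 to 3.88, 2.94 to 3.59 and 2.32 to 4.28 after 14 d, from the low to the high dose, and 2.3 to 2.62, 3.44 to 3.93 and 2.41 to 2.99 at 28 d. It passed at 10 mg/mL for 14 d without replicate 8 of that group, and at 20 mg/mL for 14 d without replicate 3, 4 or 7 of that group. At 28 d Cyp2b13 ranged from -0.05 to 0.15 at 20 mg/mL, from -0.11 to 0.27 at 40 mg/mL and from -0.05 to 0.04 per 10 mg/mL, and Cyp2b9 from -0.02 to 0.14 at 20 mg/mL. The difference between durations at 10 mg/mL ranged from -0.08 to 0.23 for Cyp2b13 and from -0.04 to 0.14 for Cyp2b9. At 20 mg/mL it ranged from -0.01 to 0.85 (second probe -0.36 to 0.49) for Cyp2b10 and from -0.22 to 0.05 for Cyp2b13, and at 40 mg/mL from -1.68 to 0.51 (second probe -1.54 to 0.7) for Cyp2b10. Controls of 28 d against 14 d ranged from -0.12 to 0.21 for the second Cyp2b10 probe, from -0.04 to 0.19 for Cyp2b13 and from -0.05 to 0.11 for Cyp2b9. For 20 against 10 mg/mL at 14 d Cyp2b10 ranged from -0.82 to 0.16 (second probe -0.65 to 0.24), for 40 against 20 mg/mL at 14 d from -1.13 to 1.16 (second probe -1.47 to 0.77), and Cyp2b13 for 40 against 20 mg/mL at 28 d from -0.14 to 0.22.

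Over the settings tried, the number of probes called ran from 0 to 12, 1 to 25 and 273 to 1390 after 14 d, from the low to the high dose, and from 0 to 18, 0 to 515 and 1 to 218 at 28 d. Counts per library ran from 63 to 604 for Cyp2b13, and the lowest count of the second Cyp2b10 probe was 36. The part of depth in the precision of these probes was not tested.

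No paired analysis was made, because each library came from a different animal and the labels give no pairing.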
